A study of Bos taurus with 24 samples.

Results

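The expression of 9 genes of Nodal and bone morphogenetic protein (BMP) signaling was followed in 24 single early bovine blastocysts. The genes were chosen by name: the ligands NODAL, BMP4 and INHBA, the receptors ACVR1 and BMPR1A, the inhibitor SMAD7, and the target genes ID1, ID2 and ID3. All 9 were found among the 24621 rows of the count table, BMPR1A under its older name BMPR-IA. The table lists genes by name only, so that no genome positions are given.

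Blastocysts were either derived in vivo or produced in vitro in 1 of 2 media, with 8 embryos in each condition and each embryo as a replicate. The study asked whether embryos grown without serum are closer to in vivo derived embryos than embryos grown with serum, and whether male and female embryos respond alike. The 5 male and 3 female in vivo derived embryos were flushed from 3 superovulated Holstein cows, so that some of them shared a mother. The 3 male and 5 female embryos of the serum condition came from slaughterhouse oocytes matured with 20% fetal bovine serum (FBS), and were cultured in synthetic oviduct fluid with 5% FBS. The 5 male and 3 female embryos of the serum-free condition came from oocytes matured with 20 ng/mL epidermal growth factor, and were cultured in the same fluid with 0.4% bovine serum albumin and a supplement of insulin and transferrin (each at 5 µg/mL) and selenium (5 ng/mL). The media thus differed in more than serum, at maturation and at culture. In vitro blastocysts were collected between day 6 and day 7 from 3 experiments. All 24 embryos were Holstein early blastocysts of the best quality grade, sired by the same bull. The cow or in vitro experiment behind each embryo is not in the labels. Whether both media were used in each experiment is not stated, so culture condition cannot be told apart from cow or experiment with these labels.

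Nodal, activins and BMPs are secreted ligands of the transforming growth factor beta family. They bind pairs of type I and type II receptors, which phosphorylate SMAD2 and SMAD3 after Nodal or activin, and SMAD1, SMAD5 and SMAD9 after BMPs. The activated SMADs enter the nucleus with SMAD4 and raise the transcription of targets such as the ID genes and of feedback inhibitors such as SMAD7, which blocks the receptors. In mammalian embryos these signals take part in the separation of trophectoderm, epiblast and hypoblast and in later axis formation.

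Levels are given below as exon counts scaled to a common library size (CPM), scaled by the TMM method over all 24 embryos. The deposited counts summed to between 3253051 and 9000447 per embryo, and 3 counts, the smallest level taken as detectable, corresponded to between 0.333 and 0.922 CPM. Gene lengths were not used, so levels are compared between embryos and not between genes. Testing required 15 counts in all embryos of either group, and a gene was called when its adjusted p-value in edgeR's quasi-likelihood test was under 0.05 and its fold change at least 2. Log2 fold changes give the condition named first over the condition named second. Each library was made from a whole embryo, so fewer cells of a type and less RNA per cell cannot be told apart.

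Serum embryo B2 stood apart from the rest over the 7557 genes with 15 counts in every embryo of at least 1 condition. Its mean Spearman correlation with the other embryos was 0.715, against 0.825 to 0.903 in the other 23. It held the highest level of BMP4, INHBA, ID1 and ID2 among all 24 embryos, so values without it are given wherever they differ in call. Markers of the trophectoderm, the outer layer of the blastocyst, also moved with serum culture. The 13 trophectoderm markers with a row summed to between 7972 and 15464 CPM in in vivo derived embryos, between 5866 and 29342 CPM in serum-free embryos and between 366 and 5826 CPM in serum embryos, with the lowest sum in B2. Of the 9 that were tested, 7 were lower in serum embryos than in in vivo derived embryos and 7 were lower than in serum-free embryos, among them KRT8 and KRT18, while 0 were called between serum-free and in vivo derived embryos. Without B2 these counts were 6 and 7. In vivo, KRT8 made up most of the sum, with a median of 8614 CPM. TEAD4 and TFAP2C, also tested, were higher with serum but not called. Their log2 fold changes over in vivo were 0.71 (adjusted p = 0.105) and 0.315 (adjusted p = 0.292). Against serum-free embryos they were 0.30 (adjusted p = 0.556) and 0.24 (adjusted p = 0.480). Without B2, TEAD4 was at 0.91 over in vivo (adjusted p = 0.00122), below the fold change required. Over all genes, 13.8% were called between serum and in vivo and 8.91% between serum and serum-free. GATA2, GATA3, IFNT and KRT19 passed the limit on low counts only through the condition where they were high. Such genes are more likely to appear lower with serum. With serum, GATA2 and GATA3 had 15 counts in 6 and 7 of 8 embryos. Serum levels were 0 to 5.82 CPM for IFNT and 2.00 to 6.57 CPM for KRT19. KRT8, KRT18 and DAB2 had at least 38.8 CPM in every serum embryo. The sum of the 7 inner cell mass markers overlapped between serum embryos, with 417 to 1161 CPM, and in vivo derived embryos, with 840 to 1187 CPM. Of these markers SOX2 was higher with serum than in vivo, 1 of 5 tested, at a log2 fold change of 1.25 (adjusted p = 0.0271; 1.39, adjusted p = 0.0141, without B2), and KLF4 was higher than in serum-free embryos, 1 of 6 tested, at 1.12 (adjusted p = 0.0170; 1.08, adjusted p = 0.0217, without B2). SPIC and POU5F1 were lower with serum than in vivo, at -0.86 (adjusted p = 0.0332) and -0.55 (adjusted p = 0.0979), neither of them called. KLF4 and PRDM14 were higher with serum than in vivo, at 0.60 (adjusted p = 0.0809) and 0.19 (adjusted p = 0.525), also not called. The sum of the inner cell mass markers was between 622 and 836 CPM in serum-free embryos, below every in vivo derived embryo. SPIC was the largest part of it, with medians of 561 CPM in vivo and 354 CPM in serum-free embryos. Of the 6 markers tested in that comparison 0 were called. SPIC was at -0.65 (adjusted p = 0.0109), and KLF4, POU5F1 and PRDM14 were also lower. NANOG and SOX2 were higher, at 1.89 (adjusted p = 0.0829) and 0.57 (adjusted p = 0.233). The 8 hypoblast markers summed to 343 to 598 CPM in vivo, 146 to 454 CPM in serum-free embryos and 27.7 to 244 CPM in serum embryos. PDGFRA made up most of the sum, with a median of 470 CPM in vivo, and was lower with serum, at a log2 fold change of -2.04 (adjusted p = 0.00101), and in serum-free embryos, at -1.01 (adjusted p = 0.00952), than in vivo. PDGFRA was the 1 hypoblast marker called of 3 tested in each of these comparisons. GATA6 and RSPO3 were not called, at 0.16 (adjusted p = 0.709) and -0.40 (adjusted p = 0.627) with serum. In serum-free embryos they were at -0.21 (adjusted p = 0.722) and -0.78 (adjusted p = 0.343). HNF4A, GATA4 and APOA1 were not tested. HNF4A and GATA4 had lower medians in serum-free embryos than in vivo, while APOA1 went the other way. The APOA1 median was 18.9 CPM in serum-free embryos, against 1.51 CPM in vivo and 0.143 CPM with serum. SOX17, a defining hypoblast gene, was at 0 in all in vivo derived and all serum embryos. Sums of markers of cells that could have come along with the embryo were lower and overlapped between conditions, with at most 71.5 CPM for 12 cumulus or granulosa genes, 18.7 CPM for 7 oviduct or uterine genes, reached in B2, and 10.8 CPM for 6 blood cell genes. PTX3, a defining cumulus cell gene, and FOXJ1, of ciliated oviduct cells, were at 0 in all 24 embryos. Other genes of these lists were not: CYP19A1 had counts in every embryo, up to 27.0 CPM in vivo, and STAR reached 35.1 CPM in vivo. OVGP1 had a median of 6.80 CPM with serum, against 0.968 CPM in vivo and 1.05 CPM in serum-free embryos. The 11 maternal oocyte transcripts summed to between 287 and 712 CPM in the 24 embryos, most of it DPPA3, and B2 was highest. B2 also held the highest level of BMP15, at 90.4 CPM, and of ZP4, at 34.6 CPM. The part of these markers in the results below was not tested.

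BMP4 and ID2 were higher and SMAD7 was lower in embryos produced with serum than in in vivo derived embryos, and the same comparison left the receptors ACVR1 and BMPR1A uncalled. The ID2 call was lost without embryo B2, and SMAD7 passed the limit on low counts only through the in vivo embryos, where it was high. Of the 9 genes, 5 passed the limit on low counts between serum and in vivo derived embryos, and 3 of these were called. In the whole table, 13.8% of the 7339 genes tested were called, 472 higher and 539 lower with serum. Between serum-free and in vivo derived embryos 5 of the 9 were tested and 0 were called, with a background of 2.2% of 7314 genes. Between serum and serum-free embryos 4 were tested and 2, BMP4 and ID2, were called, with a background of 8.91% of 7181 genes. Both passed the limit there only through the serum embryos, where they were high. Without B2, 2 members were called between serum and in vivo, BMP4 and SMAD7, and 1 between serum and serum-free, BMP4. The comparisons with in vivo derived embryos share those 8 embryos, so that the values of the pair are given side by side only.

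**Figure D1:**
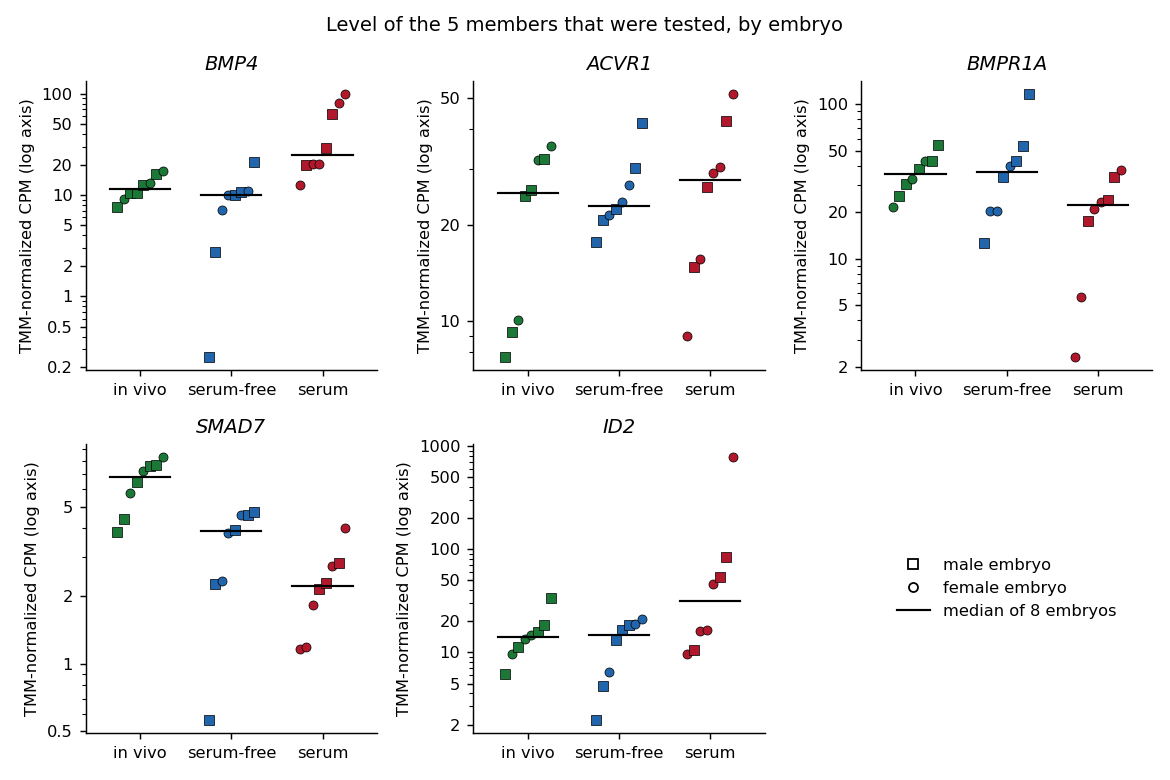
Level of each of the 5 genes that passed the limit on low counts, in TMM-normalized CPM on a log axis, with 1 symbol per embryo (squares male, circles female) and the median of the 8 embryos of each condition as a line. For BMP4, 7 of 8 serum embryos lie above all in vivo derived embryos, for SMAD7, 7 of 8 lie below them, and for ID2 serum embryo B2 lies at 790 CPM, far above the rest.

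Among the ligands, NODAL had 0 counts in all 24 embryos. NODAL signals through activin receptors with the co-receptor TDGF1 and patterns the early epiblast. A count of 0 allows up to 3 counts, or 0.333 to 0.922 CPM depending on the depth of the embryo, so that NODAL was not detectable at this depth in any condition.

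BMP4, a BMP ligand of the early embryo, had between 7.54 and 17.3 CPM in in vivo derived embryos, with a median of 11.5. In serum-free embryos it had between 0.251 and 21.0 CPM, with a median of 9.90. In serum embryos it had between 12.6 and 98.9 CPM, with a median of 24.8. The serum embryos were high as a group: 7 of 8 lay above every in vivo derived embryo, and only embryo B6, the lowest, fell inside their range. Embryos B2, B3 and B5 were the highest, at 98.9, 80.9 and 62.9 CPM, and the other 5 were at 29.1 CPM or less. The serum-free embryos ranged on both sides of the in vivo range, with 1 above it and 3 below it, and embryo C7 held a single count.

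The mean BMP4 level was 12.1 ± 3.37 CPM (SD, n = 8) in in vivo derived embryos and 43.1 ± 33.0 CPM (SD, n = 8) in serum embryos, a log2 fold change of 1.83 with an approximate standard error of 0.40 (3.55-fold, adjusted p = 0.00298). Every serum and every in vivo derived embryo had at least 15 BMP4 counts, so the gene passed the limit through both groups. Without B2 the log2 fold change was 1.56 (adjusted p = 0.00384). Serum embryos were also higher than serum-free embryos, with 9.09 ± 6.23 CPM (SD, n = 8), by a log2 fold change of 2.23 ± 0.56 (SE, 4.68-fold, adjusted p = 0.0146), and 4 of 8 serum embryos lay above all serum-free embryos. This call was kept without B2, at 1.95 (adjusted p = 0.0217). BMP4 passed the limit there only through the serum embryos, where it was high, with 6 of 8 serum-free embryos at 15 counts. A gene that passed in this way is more likely to appear higher with serum. Without the limit it was called at 2.20 ± 0.52 (SE, adjusted p = 0.0189), where 2.97% of 19155 genes were called. Serum-free and in vivo derived embryos did not differ beyond their spread, at -0.41 ± 0.43 (SE, adjusted p = 0.637). In order, serum was highest, and the in vivo and serum-free conditions were neighbours that the test did not separate.

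INHBA encodes the subunit that forms activin A. It was close to the detection floor, with 0 to 2.21 CPM in in vivo derived embryos (median 0.766), 0 to 2.91 CPM in serum-free embryos (median 1.97) and 0 to 12.8 CPM in serum embryos (median 1.61). Embryo B2 was the 1 embryo with 15 or more counts, at 54 counts, and the other serum embryos reached 2.77 CPM at most. INHBA was tested in no comparison, and its levels overlapped between all 3 conditions. Without the limit on low counts, its log2 fold change was 1.46 ± 0.92 (SE, adjusted p = 0.318) for serum over in vivo and 0.66 ± 0.88 (SE, adjusted p = 0.775) for serum-free over in vivo. INHBA also overlaps a microRNA gene in the RefSeq annotation of the ARS-UCD2.0 assembly, and counts from the strands of overlapping genes were not told apart. None of the other 8 genes overlapped a RefSeq gene.

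The type I receptors showed no call in any of the 3 comparisons. ACVR1, a type I receptor for several BMPs, had between 7.73 and 35.4 CPM in vivo (median 25.2), between 17.8 and 41.7 CPM in serum-free embryos (median 23.0) and between 8.99 and 51.2 CPM in serum embryos (median 27.7). Low and high embryos occurred side by side within conditions: A4, A8 and A9 were between 7.73 and 10.1 CPM, while the other 5 in vivo derived embryos were at 24.7 CPM or more. The means were 22.1 ± 11.4 CPM in vivo, 25.6 ± 7.52 CPM in serum-free embryos and 27.3 ± 14.3 CPM in serum embryos (SD, n = 8 each). The log2 fold changes were 0.29 ± 0.38 for serum over in vivo (SE, adjusted p = 0.593), 0.21 ± 0.31 for serum-free over in vivo (SE, adjusted p = 0.751) and 0.08 ± 0.31 for serum over serum-free (SE, adjusted p = 0.891), so that no neighbours in the order differed beyond their spread.

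BMPR1A, the type I receptor through which BMP2 and BMP4 act in the early embryo, had between 21.6 and 54.8 CPM in vivo (median 35.5), between 12.8 and 116 CPM in serum-free embryos (median 36.7) and between 2.32 and 37.4 CPM in serum embryos (median 22.2). Of the serum embryos, 4 of 8 lay below all in vivo derived embryos and 2, B2 and B3, also lay below all serum-free embryos. B3 had the lowest value, with 10 counts, and B2 the next. Serum embryos, with 20.7 ± 12.2 CPM (SD, n = 8), had 1.77-fold lower levels than in vivo derived embryos, with 36.2 ± 10.8 CPM (SD, n = 8), a log2 fold change of -0.82 ± 0.39 that missed the threshold (SE, adjusted p = 0.120). Against serum-free embryos, with 42.5 ± 32.7 CPM (SD, n = 8), it was -1.05 ± 0.48 (SE, adjusted p = 0.134). Serum-free embryos differed from in vivo derived embryos by 0.23 ± 0.34 (SE, adjusted p = 0.751), with embryo C4, at 116 CPM, more than all others.

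**Figure D2:**
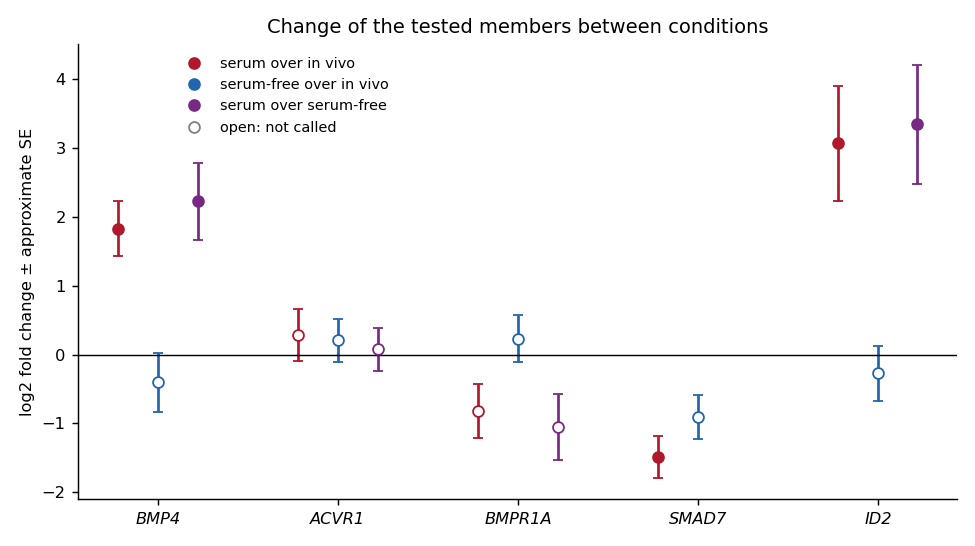
Log2 fold change of the 5 tested genes in the 3 comparisons of conditions, with bars of 1 approximate standard error and filled circles for calls. SMAD7 has no point for serum over serum-free because it was not tested there, and the ID2 calls drawn for serum were lost without embryo B2.

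SMAD7, the inhibitory SMAD that binds activated type I receptors and brings them to degradation, was the member that fell. Its level was between 3.86 and 8.33 CPM in in vivo derived embryos, with a median of 6.80. In serum-free embryos it was between 0.563 and 4.75 CPM, with a median of 3.88. In serum embryos it was between 1.16 and 4.01 CPM, with a median of 2.22. Serum embryos were low as a group, with 7 of 8 below every in vivo derived embryo and only B6 inside their range, and 4 of 8 serum-free embryos also lay below the in vivo range. B6 was also the serum embryo with the lowest BMP4 level.

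The mean SMAD7 level was 6.40 ± 1.62 CPM (SD, n = 8) in vivo. With serum it was 2.27 ± 0.938 CPM (SD, n = 8), which was 2.80-fold lower, at a log2 fold change of -1.49 ± 0.31 (SE, adjusted p = 0.00212). The counts were small, from 16 to 39 in vivo and from 5 to 25 with serum. The gene passed the limit only through the in vivo embryos, of which 8 of 8 had 15 counts, against 3 of 8 serum embryos, and a gene that passed in this way is more likely to appear lower with serum. With no limit on low counts it was called at -1.48 ± 0.46 (SE, adjusted p = 0.0406), where 7.32% of 19159 genes were called. Without B2 the value was -1.37 (adjusted p = 0.00341). Serum-free embryos, with 3.35 ± 1.49 CPM (SD, n = 8), had a log2 fold change of -0.91 ± 0.32 over in vivo that missed the threshold (SE, adjusted p = 0.0968), and SMAD7 was the 1 member with an unadjusted p under 0.05 in that comparison. SMAD7 was not tested between serum and serum-free embryos, where 3 and 5 of 8 embryos reached 15 counts and all serum embryos lay inside the serum-free range. Without the limit, that log2 fold change was -0.55 ± 0.59 (SE, adjusted p = 0.622). In order, the in vivo level was highest, then serum-free, then serum, and only in vivo and serum were separated by a test.

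ID proteins lack a DNA-binding domain and hold E proteins away from DNA, and their genes are direct targets of BMP-activated SMADs in many cell types. ID2 had between 6.13 and 33.5 CPM in in vivo derived embryos (median 14.1), between 2.22 and 21.3 CPM in serum-free embryos (median 14.9) and between 9.77 and 790 CPM in serum embryos (median 31.4). Embryo B2 held 3339 ID2 counts, and B7, B5 and B3 followed at 85.1, 54.1 and 46.1 CPM. These 4 serum embryos lay above every in vivo derived and every serum-free embryo, and the other 4, between 9.77 and 16.6 CPM, lay inside both ranges. B2, B3 and B5 were also the 3 embryos with the highest BMP4 level, while B7 had a BMP4 level of 20.0 CPM, the second lowest among serum embryos.

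ID2 averaged 15.3 ± 8.25 CPM in vivo, 12.7 ± 7.28 CPM in serum-free embryos and 129 ± 269 CPM in serum embryos (SD, n = 8 each). Serum over in vivo gave a log2 fold change of 3.07 ± 0.83 (SE, 8.39-fold, adjusted p = 0.0108), and serum over serum-free gave 3.34 ± 0.87 (SE, 10.2-fold, adjusted p = 0.0170). Both calls were lost without B2, at 1.16 (adjusted p = 0.0613) and 1.41 (adjusted p = 0.0673), when the 7 remaining serum embryos averaged 34.0 ± 28.7 CPM (SD, n = 7). DESeq2 called ID2 with smaller values, at 1.06 (adjusted p = 0.0490) over in vivo and 1.31 (adjusted p = 0.0376) over serum-free. ID2 passed the limit through all serum and all in vivo derived embryos. Against serum-free embryos, of which 7 of 8 had 15 counts, it passed only through serum, where it was high. Without the limit that value was 3.24 ± 0.76 (SE, adjusted p = 0.0186). Serum-free over in vivo was -0.27 ± 0.40 (SE, adjusted p = 0.751). The in vivo and serum-free conditions, neighbours in the order, therefore did not differ beyond their spread. The quasi-likelihood calls of serum above them were lost without B2. In male embryos, a group without B2, the exact test of edgeR and DESeq2 called ID2 between serum and in vivo.

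**Figure D3:**
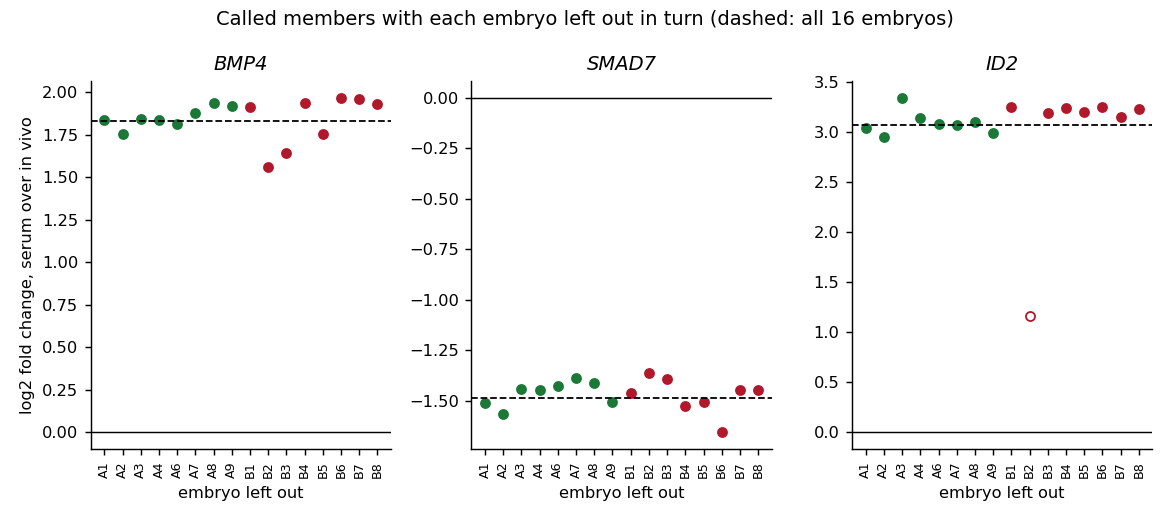
Log2 fold change of serum over in vivo for BMP4, SMAD7 and ID2 with each of the 16 embryos left out in turn (A in vivo, B serum), with the value from all embryos as a dashed line. BMP4 stayed between 1.56 and 1.97 and SMAD7 between -1.66 and -1.37, all called, while ID2 fell to 1.16 and lost its call (open circle) without B2.

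ID1 was near the floor in all conditions, with 0 to 0.959 CPM in vivo (median 0.418), 0 to 1.41 CPM in serum-free embryos (median 0.752) and 0 to 4.97 CPM in serum embryos (median 0.536). Embryo B2, with 21 counts, was the 1 embryo with 15 or more, and each condition had 2 embryos at 0. ID1 was tested in no comparison of conditions, and without the limit its log2 fold changes were 1.15 ± 1.00 for serum over in vivo (SE, adjusted p = 0.465) and 0.61 ± 0.89 for serum-free over in vivo (SE, adjusted p = 0.805).

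ID3 had its highest levels in serum-free embryos. It had 0 to 3.60 CPM in in vivo derived embryos (median 0), 0 to 30.1 CPM in serum-free embryos (median 7.44) and 0 to 14.7 CPM in serum embryos (median 0.262). In vivo, 5 of 8 embryos were at 0 and only A9, with 15 counts, stood out. In contrast, 7 of 8 serum-free embryos had ID3 counts and 5 of 8 lay above every in vivo derived embryo, C1 being highest with 158 counts. Among serum embryos 4 of 8 were at 0, and only B2 and B4 lay above the in vivo range.

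The pooled comparisons did not test ID3, because 6 of 8 serum-free embryos reached 15 counts and the limit asked for all 8. Without that limit, serum-free over in vivo gave a log2 fold change of 3.86 ± 0.98 (SE, adjusted p = 0.0462), which was a call in a fit where 0.772% of 19171 genes were called. With the same change, serum over in vivo was 2.14 ± 1.27 (SE, adjusted p = 0.289) and serum over serum-free was -1.74 ± 1.04 (SE, adjusted p = 0.351). Embryos at 0 make these fold changes depend on the prior count of the fit.

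**Figure D4:**
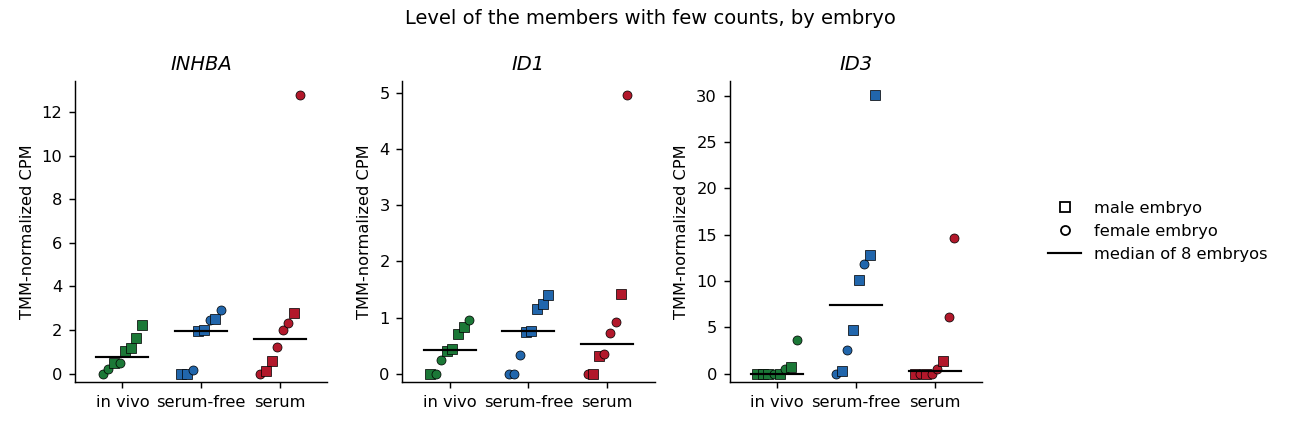
Level of INHBA, ID1 and ID3 in TMM-normalized CPM on linear axes, with 1 symbol per embryo and the median of 8 embryos as a line. NODAL is not drawn because it was at 0 in every embryo. INHBA and ID1 are highest in 1 serum embryo, B2, while ID3 has its highest value, 30.1 CPM, and its highest median, 7.44 CPM, in serum-free embryos.

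The sexes were then compared within and between conditions, with 3 to 5 embryos a group. In male embryos, 5 of the 9 genes were tested between serum and in vivo, and 1, BMP4, was called, with a background of 13.3% of 7762 genes. Its log2 fold change was 1.71 ± 0.42 (SE, adjusted p = 0.0172), from 11.4 ± 3.19 CPM (SD, n = 5) in vivo to 37.3 ± 22.6 CPM (SD, n = 3) with serum, with no overlap. SMAD7 did not overlap either, at -1.30 ± 0.52 (SE, adjusted p = 0.0997), but missed the threshold. ID2 was at 1.54 ± 0.60 (SE, adjusted p = 0.0945) in male embryos, a group without B2. The exact test of edgeR and DESeq2 each called 2 of the 5, BMP4 and ID2.

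In female embryos the same 5 genes were tested and 0 were called by the quasi-likelihood test, with a background of 0.418% of 8138 genes. BMP4, SMAD7 and ID2 had unadjusted p-values under 0.05. BMP4 had a log2 fold change of 1.84 ± 0.73 (SE, adjusted p = 0.201), SMAD7 of -1.67 ± 0.52 (SE, adjusted p = 0.135) and ID2 of 3.83 ± 1.59 (SE, adjusted p = 0.213). Female SMAD7 levels did not overlap between 2.18 ± 1.21 CPM (SD, n = 5) with serum and 7.09 ± 1.29 CPM (SD, n = 3) in vivo. The exact test of edgeR called 1 of the 5, SMAD7, and DESeq2 called 0.

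Whether the change with serum differed between the sexes was tested directly. Of 8446 genes, 0% were called in the interaction of sex and serum culture (436 with an unadjusted p under 0.05; 14 called by DESeq2), and 0 of the 5 members tested had an unadjusted p under 0.05 or was called by DESeq2. The male change minus the female change was -0.08 ± 0.85 on the log2 scale for BMP4 (SE, adjusted p = 0.998), 0.41 ± 0.72 for SMAD7 (SE, adjusted p = 0.998) and -2.24 ± 1.66 for ID2 (SE, adjusted p = 0.996). The standard errors leave room for sex differences of more than 2-fold.

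Serum-free and in vivo derived embryos were compared within each sex in the same way. In male embryos 5 members were tested and 0 were called, with a background of 0.966% of 7662 genes. In female embryos 5 were tested and 0 were called, with a background of 0.304% of 8211 genes. In both sexes 0 members had an unadjusted p under 0.05, and 0 were called by the exact test or by DESeq2. SMAD7 was at -0.86 ± 0.47 (SE, adjusted p = 0.358) in males and at -0.97 ± 0.53 (SE, adjusted p = 0.461) in females, with no overlap in females. ID3 had at least 15 counts in 4 of 5 male serum-free embryos and in 0 of 5 male in vivo derived embryos. The interaction of sex and serum-free culture called 0% of 8425 genes (555 with an unadjusted p under 0.05; 5 called by DESeq2) and 0 of 5 members, by DESeq2 as well.

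Between male and female embryos of the same condition no member was called. The quasi-likelihood test called 0 of 5 members tested in vivo (background 0.653% of 7963 genes), 0 of 4 with serum (0.173% of 7534 genes) and 0 of 4 in serum-free medium (0.139% of 7918 genes). In these comparisons 0 members had an unadjusted p under 0.05 and 0 were called by the exact test or DESeq2. The largest difference was that of ID2 with serum, at -1.83 ± 1.44 for male over female (SE, adjusted p = 0.961), where B2 is female. ID1, which was not tested, did not overlap between the 5 male serum-free embryos, with 1.06 ± 0.295 CPM, and the 3 female, with 0.113 ± 0.196 CPM (SD), at levels close to the detection floor.

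The rest of the pathway was described with a list of 117 genes grouped by role, of which 97 genes other than the 9 had a row in the table. Between serum and in vivo derived embryos 27 of the 97 were tested and 3 were called, each lower, or 11.1% beside 13.8% of all genes. The median log2 fold change was -0.39 over the 27 genes and 0.02 over all genes. Between serum-free and in vivo derived embryos 1 of 29 was called, lower, or 3.45% beside 2.2%. Between serum and serum-free embryos 5 of 26 were called, each lower, or 19.2% beside 8.91%. The shares are of few genes and are given as a description. Each gene called lower with serum had fewer than 8 serum embryos with 15 counts, so it passed the limit only through the condition where it was high.

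With no limit on low counts, 9 of the others were called between serum and in vivo, 5 higher and 4 lower, beside 7.32% of all genes. The higher genes were the ligands BMP6, BMP7 and GDF11, the BMP-binding protein CHRD and the receptor TGFBR2, all with medians of 3.27 CPM or less with serum, and the lower ones DLX3, GATA2, GATA3 and TGFB2. Between serum and serum-free embryos 3 were called, each lower, GATA2, GATA3 and TGFB2, beside 2.97% of all genes. These genes with low counts were named after their values were seen, and where embryos are at 0 the fitted changes depend on the prior count.

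Other ligands were mostly too low to test, with 0 of 23 tested between serum and in vivo. TGFB2, which activates SMAD2 and SMAD3, was the 1 ligand tested between serum and serum-free embryos, where it was lower with serum, at a log2 fold change of -2.37 ± 0.48 (SE, adjusted p = 0.00638). It had 0.285 to 4.36 CPM in serum embryos, all below the 4.71 to 12.1 CPM of serum-free embryos, and 1.66 to 12.7 CPM in vivo. It passed the limit only through the serum-free embryos, and without the limit it was at -2.35 ± 0.61 (SE, adjusted p = 0.0291).

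Of the 14 other receptors and co-receptors with a row, 4 were tested in each comparison. TGFBR3, the co-receptor betaglycan that presents TGFB2, was lower with serum than in serum-free medium, at a log2 fold change of -1.71 ± 0.52 (SE, adjusted p = 0.0320), with 0.112 to 11.1 CPM against 5.72 to 43.3 CPM. It had 15 counts in 6 of 8 serum embryos, and without the limit the call was lost (-1.69 ± 0.52, SE, adjusted p = 0.0643). Its difference from the in vivo embryos, with 7.73 to 18.1 CPM, was -0.94 ± 0.47 (SE, adjusted p = 0.134). The other SMADs and nuclear partners had 9 of 12 genes tested and 0 called in each comparison, although SMAD2, a carrier of Nodal and activin signals, had an adjusted p of 0.0146 at a 1.79-fold higher level with serum than in vivo, below the fold change required.

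Of the secreted and intracellular inhibitors other than SMAD7, 6 of 20 were tested between serum and in vivo and 1 was called. TWSG1, a secreted BMP-binding protein, had 7.96 to 22.6 CPM in vivo, 8.40 to 27.3 CPM in serum-free embryos and 1.39 to 12.7 CPM in serum embryos. It was lower with serum, at a log2 fold change of -1.32 ± 0.40 against in vivo (SE, adjusted p = 0.0198) and of -1.37 ± 0.43 against serum-free (SE, adjusted p = 0.0365), and the latter call was lost without B2, at -1.30 (adjusted p = 0.0564). It had 15 counts in 5 of 8 serum embryos, and without the limit both calls were lost, at -1.32 (adjusted p = 0.0582) and -1.35 (adjusted p = 0.106). Of the 9 genes of ligand processing, 0 were called in any comparison, by tests of at most 1 gene.

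Target genes of the pathway other than the members had 9 of 24 tested between serum and in vivo, and 2 were called. GATA2 and GATA3, transcription factors of the trophectoderm, were lower with serum, at log2 fold changes of -1.98 ± 0.40 (SE, adjusted p = 0.00175) and -1.88 ± 0.53 (SE, adjusted p = 0.0124). GATA2 had 26.1 to 47.8 CPM in vivo against 1.62 to 22.6 CPM with serum, without overlap. With 15 counts in 6 and 7 of 8 serum embryos, they were called without the limit as well, at -1.96 (adjusted p = 0.00262) and -1.86 (adjusted p = 0.0174). Both are also among the 13 trophectoderm markers above, so their values are counted in the fall of those markers too.

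Against serum-free embryos 2 of 8 target genes tested were called, again GATA2, at -1.69 ± 0.44 (SE, adjusted p = 0.0168), and GATA3, at -2.10 ± 0.54 (SE, adjusted p = 0.0162). Between serum-free and in vivo derived embryos the 1 call of 10 was KLF10, an early gene of transforming growth factor beta listed under its older name TIEG1, at -1.02 ± 0.23 (SE, adjusted p = 0.0138). KLF10 had 267 to 805 CPM in vivo and 100 to 370 CPM in serum-free embryos. The E proteins that ID proteins bind had 0 calls among the 1 or 2 genes tested.

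The genes whose levels followed those of the called members most closely over the 24 embryos were searched among 7557 genes, by Spearman correlation. For BMP4 they were SAP18 (0.810), UBOX5 (0.793) and RBM4 (0.782). SMAD7 was followed by GPCPD1 (0.865), HSD17B8 (0.835) and VCL (0.823), and ID2 by PIGC (0.773), HNRNPA3 (0.743) and TRRAP (0.734). The embryos share culture conditions and normalization, and the values are a description of likeness in level only.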

How the data were processed

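Libraries were made from 1 ng of total RNA of each embryo with a kit that does not mark strand, after PCR amplification and without molecular identifiers. The authors trimmed the paired reads, mapped them to the Ensembl UMD 3.1 bovine genome and deposited raw counts per gene of uniquely mapped exon fragments.

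Expression was tested on the deposited counts with the quasi-likelihood test of edgeR 4.0.16 (R 4.3.3) after TMM scaling, in separate fits of each pair of groups. Genes were tested when every embryo of at least 1 group had 15 counts, p-values were adjusted by Benjamini-Hochberg over all genes tested, and calls needed an adjusted p under 0.05 and at least a 2-fold change (no fold limit for interactions). Standard errors are approximate, being the estimate over the square root of F. The study used edgeR's exact test and did not compare serum with serum-free embryos. Alternatives were that exact test, DESeq2 1.42.0, DESeq2's size factors, other limits on low counts, one fit over all 24 embryos, sex as a covariate, a block for embryo number and each embryo left out.

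No batch was modelled. The detection floors cover counting error only, while the standard errors and SDs also hold the spread between embryos.

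The members, gene lists and markers were chosen with earlier results of these data known. All 9 members are named, with the called genes of the pathway list, the 3 genes closest in level to each called member, and 1 or 2 examples of the marker lists. A gene of the pathway list is not reported here and was left out of that list's counts, though not of the fits. SMAD2, SOX2, KLF4, PDGFRA, BMP15 and ZP4, and genes called only without the limit on low counts, were named outside this rule, after their values were seen. So were SPIC, POU5F1, PRDM14, NANOG, GATA6, RSPO3, HNF4A, GATA4, APOA1, KRT19, IFNT, DAB2, TEAD4, TFAP2C, CYP19A1, STAR and OVGP1. BMPR1A and KLF10 were matched through older symbols in RefSeq (ARS-UCD2.0), whose positions served only to look for overlapping genes and are not given because the build differs.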

Additional observations from a re-analysis of the deposited data

Results flagged for a closer look

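Single embryos far from the rest of their condition were looked for in 24 groups of 8 embryos, 8 genes in 3 conditions, by the gap to the nearest embryo as a share of the whole range. Chance flags about 1 in 20 groups. The choice of scale changed the result, with 8 groups found on the CPM scale and 2 on the scale of log2(CPM + 1).

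On both scales, ID3 in in vivo derived embryos had its highest value in A9, at 3.60 CPM, while the other 7 were at 0.701 CPM or less. On the log2 scale alone, SMAD7 in serum-free embryos had its lowest value in C4, at 0.563 CPM, with the other 7 embryos at 2.26 CPM or more.

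On the CPM scale alone, B2 was the highest serum embryo for ID2, at 790 CPM, for INHBA, at 12.8 CPM, for ID1, at 4.97 CPM, and for ID3, at 14.7 CPM. In serum-free embryos BMPR1A was highest in C4, at 116 CPM, and ID3 in C1, at 30.1 CPM. In in vivo derived embryos ID2 was highest in A3, at 33.5 CPM.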

How the results depend on the processing

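Between serum and in vivo derived embryos of both sexes together, SMAD7 kept its call wherever it could be tested, and BMP4 kept its call in every setting but the block. Embryo numbers recur across conditions, but 0 of 7 pairs deviated together (correlation over 0.1) in each comparison, and the own number was the best match in 1, 0 and 0 of 7. With a block for that number, fitted on the 14 embryos that share one, 1 member was called between serum and in vivo (SMAD7, with BMP4 at 1.41, adjusted p = 0.0561, and ID2 at 0.89, adjusted p = 0.438) and 0 between serum and serum-free, where ACVR1 turned to -0.10. The cause was not tested. Asking for 15 counts in every embryo of both groups left BMP4 and ID2 untested between serum and serum-free, giving 0 calls. Without a limit on low counts ID3 was called between serum-free and in vivo, giving 1 call. In male embryos the exact test and DESeq2 each called 2 members between serum and in vivo (BMP4 and ID2), and in female embryos the exact test called 1 (SMAD7).

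Leaving out embryos singly, the members called ranged from 1 to 2 between serum and serum-free, from 0 to 2 in male embryos between serum and in vivo (0 without B5, 2 without B1) and from 0 to 1 in male embryos between serum-free and in vivo (ID3, without C4, which alone had kept it under the limit). The uncalled change of ACVR1 between serum and serum-free ranged from -0.0928, without B3, to 0.24. BMPR1A between serum-free and in vivo ranged from -0.17, without C4, to 0.38, and ID2 from -0.41 to 0.0006, without A3. Without B2, an alternative added after seeing the data for the other pathway genes, their calls were 3 of 3 between serum and in vivo and 4 of 5 between serum and serum-free. Without a limit on low counts, also added then, 5 were higher between serum and in vivo (6 without B2; 0 with the limit), 2 lower between serum-free and in vivo (1) and 3 lower between serum and serum-free (5).

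Over all genes, calls also moved by more than 1.5 times, and the number in the tests of the report follows in parentheses. Between serum and in vivo they were 544 with 15 counts asked of both groups (1011). Between serum-free and in vivo they were 72 in one fit over all embryos, 82 with the block and 94 with the stricter limit (161). Between serum and serum-free they were 29 with the block and 366 with the stricter limit (640). The exact test and DESeq2 called 467 and 585 genes in female embryos with serum (34), 199 and 201 in male (74) and 192 and 181 in female (25) serum-free embryos, and 119 and 116, 62 and 97, and 53 and 57 between the sexes in vivo, with serum and without (52, 13 and 11). Leaving out embryos singly moved these counts to between 393 (without C7) and 784 for serum against serum-free, 658 (without B7) and 1755 (without B1) for serum in males, 2 (without A6, A7 or B4) and 446 (without B2; at most 15 without another embryo) in females, 9 (without A4) and 122 (without C7) for serum-free in males, 1 (without A6, A7 or A9) and 18 in females, 7 (without B3, B4, B6 or B8) and 23 (without B2) between the sexes with serum, and 8 and 17 (without C7) without. Low counts limit NODAL, INHBA, ID1 and ID3, and small groups limit the tests within a sex.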
